A study of Mus musculus with 6 samples.

Results

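The 10 genes described here are 2 hypoxia factors, HIF1A and EPAS1, and 8 of their well-known targets outside glycolysis, namely VEGFA, CA9, ADM, ANGPTL4, EGLN3, BNIP3, NDRG1 and P4HA1. They were picked by their human Ensembl identifiers from the 60649 genes of the count table, and all 10 were found and passed the filter on low counts. RNA was sequenced from 6 xenograft tumors of LAPC-4, a human hormone-sensitive prostate cancer line with a wild-type androgen receptor, grown with Matrigel in the flank of male severe combined immunodeficient mice (CB.17 scid/scid, 6 to 8 weeks old at purchase), which lack mature B and T cells but keep their other host cells. All mice first ate the HiGI diet, a Western diet with sucrose as its main carbohydrate. When tumors averaged 200 mm3, mice were randomized to stay on HiGI (3 sequenced tumors, numbered 16, 20 and 26) or to move to LoGI, a Western diet of nearly the same makeup with high-amylose starch (Hylon-VII) and maltodextrin in place of sucrose (3 sequenced tumors, numbered 19, 27 and 28). Tumors were taken later, after a short fast, when each had grown to a larger set volume, so that time on the diet could differ between mice. A single cell line in a single host strain was used, so that the tumors are replicate animals and not different cancers.

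Cells sense oxygen through prolyl hydroxylases, which use it to mark the HIF-α proteins for destruction by the VHL ubiquitin ligase. When oxygen is scarce, HIF-1α (the protein of HIF1A) and HIF-2α (the protein of EPAS1) escape this mark, pair with ARNT and switch on genes for blood vessel growth, pH control, mitochondrial turnover and matrix assembly. Control of the factors is therefore mostly at the protein level, while the response of their targets is read in the RNA, and solid tumors often contain such poorly perfused regions.

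The libraries held 18749813 to 21550812 reads on genes. The first principal component of the tested genes, with 51.3% of the variance, separated the diets, and the second, with 14.7%, set HiGI tumor 26 apart from the other tumors. Pairs of tumors on one diet differed beyond the sampling noise of their counts (chi-square per degree of freedom 4.91 to 12.5), and each was counted as a replicate. The sample records name the organism as mouse, whereas the counts are on human genes. The identity of the tissue was not checked against prostate, endothelial, fibroblast or leukocyte markers, because the table does not pair identifiers with symbols, and values below are also given without tumors where these decide a result.

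Whether the hypoxia genes differed between the diets was asked first. None of the 10 genes passed the threshold, an adjusted p under 0.05 (edgeR quasi-likelihood test, Benjamini-Hochberg adjustment over 24545 genes) together with a log2 fold change of 1 or beyond in either direction. In the background, 3.45% of all tested genes passed, 3.38% with lower and 0.0733% with higher levels on LoGI. Without a minimum fold change the count was still 0 of 10, against 4.73% of all genes, and DESeq2's Wald test and edgeR's exact test also gave 0 at that level. Next to such shares, a count of 0 in 10 is close to the background and is no result about the hypoxia genes. At an unadjusted p under 0.05 there were 3 of the 10, EPAS1, EGLN3 and P4HA1, against 13.3% of all tested genes. The log2 fold change of LoGI over HiGI was above 0 for 8 of the 10 genes, against 50.5% of all tested genes. It was below 0 for HIF1A and ANGPTL4. Its median was 0.17 over the 10 genes and 0.0034 over all tested genes. Several targets deviated together across tumors (below), so that these signs are not independent of each other. In size, the median log2 fold change was 0.19 for the hypoxia genes and 0.19 for all tested genes. The mean levels of the hypoxia genes lay at percentiles 73.6 to 99.1 of all tested genes. No background of genes with like levels was made, so the 2 medians do not compare like with like. The 95% interval of the log2 fold change (DESeq2 estimate ± 1.96 standard errors, without adjustment for the number of genes) stayed within 1 in either direction for each of the 10 genes, from a lowest bound of -0.61 for HIF1A to a highest bound of 0.91 for CA9. A doubling or a halving by diet therefore lay outside the interval of every one of these genes, and 7 of the intervals held 0. The same counts over all tested genes were not made, so these are no result about the hypoxia genes in particular. The multiplier of 1.96 is that of a normal distribution, which can make intervals too narrow with 3 tumors per diet. In a whole tumor, fewer cells of one type and less RNA per cell cannot be told apart.

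**Figure D1:**
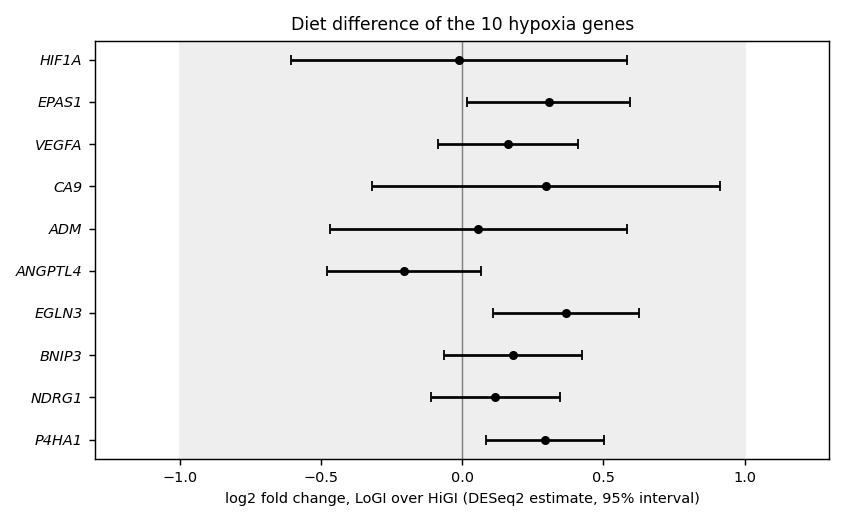
Log2 fold change of each hypoxia gene, LoGI over HiGI tumors (horizontal axis, DESeq2 estimate), with its unadjusted 95% interval as a bar. The grey band spans log2 fold changes from -1 to 1, the size the threshold asks for, and all 10 intervals lie inside it, with CA9 reaching 0.91.

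Counts below are normalized read counts (reads scaled by TMM library size to the average library). They are not divided by gene length, so that they are compared between tumors and not between genes. HIF1A (ENSG00000100644.17) encodes the oxygen-labile subunit found in nearly all cells. Its counts were 6148, 4531 and 2984 in HiGI tumors 16, 20 and 26, and 4840, 4666 and 3993 in LoGI tumors 19, 27 and 28. Both the highest and the lowest tumor of the 6 were HiGI tumors, and all LoGI tumors lay between them. The means were 4554 ± 1582 (SD, n = 3) in HiGI and 4500 ± 447 (SD, n = 3) in LoGI tumors. The log2 fold change was -0.018 (DESeq2 standard error 0.30, adjusted p = 0.986 by the edgeR quasi-likelihood F-test, Benjamini-Hochberg). It was 0.26 without HiGI tumor 16 and -0.24 without HiGI tumor 26, so that its sign rested on single tumors. The ratio of the highest to the lowest tumor was 2.06 on HiGI and 1.21 on LoGI, and the ratio on HiGI was the largest such ratio within a diet among the 10 genes. Antisense genes overlap HIF1A, and since the strand setting of the counting is not stated, reads of the 2 strands may not have been told apart.

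EPAS1 (ENSG00000116016.14), the relative of HIF1A that is best known from endothelial cells and kidney cancer, gave 662, 496 and 466 normalized counts in HiGI tumors 16, 20 and 26. In LoGI tumors 19, 27 and 28 it gave 610, 754 and 638. HiGI tumor 16 lay inside the LoGI range, and the other HiGI tumors below it. The means were 541 ± 105 (SD, n = 3) and 668 ± 76.4 (SD, n = 3), a log2 fold change of 0.30 (DESeq2 standard error 0.15, adjusted p = 0.342 by the edgeR quasi-likelihood F-test, Benjamini-Hochberg). Without HiGI tumor 16 the log2 fold change was 0.47, with an adjusted p of 0.0458 in the same edgeR test, and without any one of the other tumors the adjusted p was 0.31 or more. Set against each other within a tumor, EPAS1 had 108, 109 and 156 reads per 1000 HIF1A reads in HiGI tumors 16, 20 and 26, and 126, 162 and 160 in LoGI tumors 19, 27 and 28. The ranges of the diets overlapped, with HiGI tumor 26 close to the higher LoGI tumors (124.5 ± 27.6 against 149 ± 20.1, SD, n = 3 each).

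Of the secreted products, VEGFA (ENSG00000112715.25) is the main growth factor for new vessels. Its normalized counts were 6005, 5637 and 5637 in HiGI tumors 16, 20 and 26, and 7861, 5281 and 6123 in LoGI tumors 19, 27 and 28. The HiGI tumors were close to each other, while the LoGI tumors reached both above and below them. The log2 fold change was 0.16 (DESeq2 standard error 0.13, adjusted p = 0.667 by the edgeR quasi-likelihood F-test, Benjamini-Hochberg), and without LoGI tumor 19 it was -0.012. ADM (ENSG00000148926.10) encodes adrenomedullin, a vasodilator peptide. It gave 1927, 2435 and 1560 normalized counts on HiGI and 2304, 1524 and 2315 on LoGI, in the same order of tumors. Each diet had one low tumor, 26 on HiGI and 27 on LoGI, and the means of 1974 ± 440 and 2047 ± 454 (SD, n = 3 each) differed by less than either SD, with a log2 fold change of 0.052 (DESeq2 standard error 0.27, adjusted p = 0.947 by the edgeR quasi-likelihood F-test, Benjamini-Hochberg). ANGPTL4 (ENSG00000167772.12), an inhibitor of lipoprotein lipase that also responds to fatty acids, was the target with a log2 fold change below 0. It had 3051, 4332 and 3475 normalized counts on HiGI and 3353, 2573 and 3456 on LoGI. HiGI tumor 20 was the highest and LoGI tumor 27 the lowest, and the other tumors overlapped. The log2 fold change was -0.21 (DESeq2 standard error 0.14, adjusted p = 0.559 by the edgeR quasi-likelihood F-test, Benjamini-Hochberg), and -0.060 without HiGI tumor 20.

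With all 6 tumors, the largest log2 fold change of the 10 genes belonged to EGLN3 (ENSG00000129521.15), one of the oxygen-sensing prolyl hydroxylases that mark HIF-α and itself a HIF target. Its normalized counts were 2120, 2790 and 2344 in HiGI tumors 16, 20 and 26, and 3609, 2593 and 3131 in LoGI tumors 19, 27 and 28. LoGI tumors 19 and 28 lay above every HiGI tumor, but LoGI tumor 27 lay below HiGI tumor 20. The means were 2418 ± 341 and 3111 ± 509 (SD, n = 3 each), a 1.29-fold higher level on LoGI with a log2 fold change of 0.36 (DESeq2 standard error 0.13, adjusted p = 0.139 by the edgeR quasi-likelihood F-test, Benjamini-Hochberg). Without LoGI tumor 27 the log2 fold change was 0.49 with an adjusted p of 0.0456 in that edgeR test, and without LoGI tumor 19 it was 0.25 with an adjusted p of 0.582. When the filter was lowered to 1 read, so that 36617 genes were tested, the adjusted p from edgeR was 0.00495, at a log2 fold change of 0.37. Its place as the largest rested on single tumors, since EPAS1 was larger without HiGI tumor 16 (0.47 against 0.28) or LoGI tumor 19 (0.36 against 0.25), and CA9 was larger without HiGI tumor 16 (0.36) or LoGI tumor 27 (0.495 against 0.486).

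P4HA1 (ENSG00000122884.13) encodes a catalytic subunit of collagen prolyl 4-hydroxylase, which also needs oxygen and makes stable collagen possible. It had 2502, 2745 and 2697 normalized counts in HiGI tumors 16, 20 and 26, and 3550, 2829 and 3321 in LoGI tumors 19, 27 and 28. It was the one gene of the 10 whose diets did not overlap, with LoGI tumor 27 just above HiGI tumor 20. Among all tested genes the diets did not overlap for 18.5%, and for 7.59% with LoGI on the higher side. Its means were 2648 ± 129 and 3233 ± 369 (SD, n = 3 each), a 1.22-fold higher level on LoGI with a log2 fold change of 0.29 (DESeq2 standard error 0.11, adjusted p = 0.129 by the edgeR quasi-likelihood F-test, Benjamini-Hochberg). With LoGI tumor 27 left out the log2 fold change was 0.38 and the adjusted p 0.0487 in that edgeR test. With LoGI tumor 19 left out they were 0.22 and 0.53, and without any one of the other tumors the adjusted p was 0.19 or more. For a single gene, the smallest two-sided p that exact permutation of 3 against 3 tumors allows is 0.1.

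CA9 (ENSG00000107159.13), a membrane carbonic anhydrase that helps keep the cell's pH and is widely used as a marker of tumor hypoxia, gave 634, 690 and 413 normalized counts in HiGI tumors 16, 20 and 26. It gave 805, 501 and 820 in LoGI tumors 19, 27 and 28. Each diet held one low tumor, 26 on HiGI and 27 on LoGI, and the ratio of the highest to the lowest tumor was 1.67 on HiGI and 1.64 on LoGI. The log2 fold change was 0.29 (DESeq2 standard error 0.32, adjusted p = 0.602 by the edgeR quasi-likelihood F-test, Benjamini-Hochberg), and its standard error was the largest of the 10. It was 0.10 without HiGI tumor 26 and 0.495 without LoGI tumor 27. BNIP3 (ENSG00000176171.11), a mitochondrial outer membrane protein that promotes the removal of mitochondria, had 4183, 4592 and 3693 normalized counts on HiGI and 5294, 3850 and 4925 on LoGI, in the same order of tumors. Tumors 26 and 27 were again the lowest. Its log2 fold change was 0.17 (DESeq2 standard error 0.13, adjusted p = 0.602 by the edgeR quasi-likelihood F-test, Benjamini-Hochberg). That log2 fold change was 0.080 without LoGI tumor 19 and 0.305 without LoGI tumor 27. Reads of BNIP3 may be shared with a processed pseudogene, and how the authors' counting divided them was not tested. NDRG1 (ENSG00000104419.17), a cytoplasmic protein induced by hypoxia, metals and differentiation, had 8195, 9432 and 8942 normalized counts on HiGI and 10852, 7932 and 9950 on LoGI. Its LoGI tumors spanned the whole HiGI range on both sides, with a log2 fold change of 0.11 (DESeq2 standard error 0.12, adjusted p = 0.759 by the edgeR quasi-likelihood F-test, Benjamini-Hochberg). The log2 fold change of NDRG1 was 0.016 without LoGI tumor 19 and 0.24 without LoGI tumor 27.

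**Figure D2:**
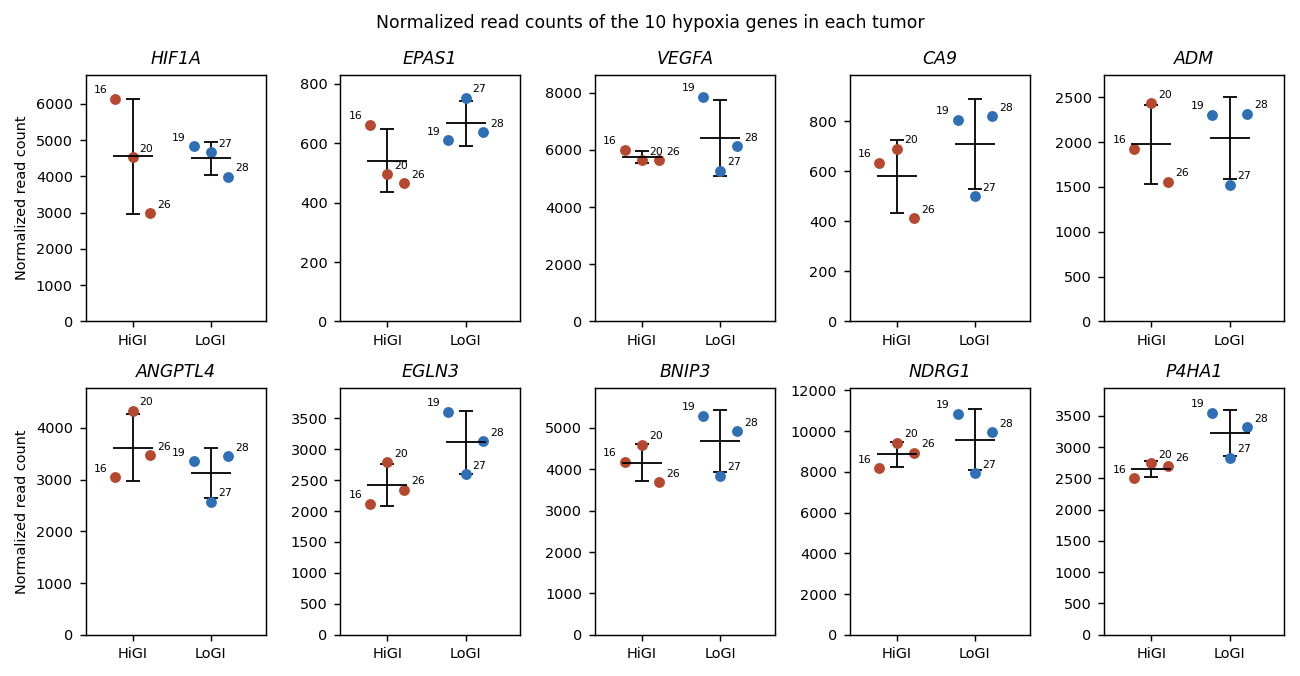
Normalized read counts (vertical axes, each from 0) of the 10 hypoxia genes in HiGI (red) and LoGI (blue) tumors, one point per tumor with its number. Horizontal lines are means and bars are SD (n = 3 tumors per diet). The diets overlap for every gene but P4HA1, where LoGI tumor 27 (2829) is just above HiGI tumor 20 (2745), and HIF1A spans 2984 to 6148 on HiGI alone.

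The fold between diets was larger than the ratio of the highest to the lowest tumor within both diets for 0 of the 10 genes and for 10.7% of all tested genes, a share too near to be a result about the hypoxia genes. Tumors often deviated the same way for several targets. In log2 CPM (normalized counts scaled to a fixed library size, with 0.5 added), LoGI tumor 27 was below the LoGI mean for 8 of the 8 targets, with deviations from -0.19 for P4HA1 to -0.46 for CA9. LoGI tumor 19 was below it for 0 of the 8, with deviations from 0.11 to 0.31, and LoGI tumor 28 for 1 of the 8. On HiGI, tumor 20 was below the HiGI mean for 1 of the 8 targets, tumor 16 for 5 and tumor 26 for 6. Deviations of the 3 tumors of a diet sum to 0, so that they are not independent of each other. The median deviation of the 8 targets was -0.27 in LoGI tumor 27 and 0.19 in LoGI tumor 19. Over the 13055 genes with a mean of at least 50 reads, 47.5% were below the LoGI mean in tumor 27 and 51.7% in tumor 19, with medians of 0.007 and -0.005. The share was 50.9% in LoGI tumor 28. Below the HiGI mean were 48.4%, 50.8% and 50.3% of these genes in HiGI tumors 16, 20 and 26. Normalization and centring on the diet mean hold such values near the middle in every tumor, so that they do not show the low level of tumor 27 to be particular to the targets.

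The factors deviated with the targets in some tumors and against them in others. In LoGI tumor 19, where every target was high, HIF1A was 0.11 above the LoGI mean in log2 CPM and EPAS1 deviated by -0.12. In LoGI tumor 27, where every target was low, HIF1A was 0.057 and EPAS1 0.18 above the LoGI mean in log2 CPM. In HiGI tumor 16, HIF1A was 0.49 and EPAS1 0.30 above the HiGI mean, while the 8 targets ranged from -0.23 for ANGPTL4 to 0.16 for CA9. HiGI tumor 20 had the highest level of the HiGI tumors for 7 targets, all but VEGFA, with HIF1A only 0.054 above the mean there. In HiGI tumor 26, HIF1A deviated by -0.55, EPAS1 by -0.20, CA9 by -0.45 and ADM by -0.31 from the HiGI mean, but NDRG1 by 0.016 and P4HA1 by 0.027. The summed level of the 8 targets was 1429, 1631 and 1437 CPM in HiGI tumors 16, 20 and 26 and 1879, 1353 and 1700 CPM in LoGI tumors 19, 27 and 28, so that LoGI held both the highest and the lowest tumor. Tumor 27 had the largest library of the 6 and tumor 26 the smallest, and the part of library size in these levels was not tested.

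**Figure D3:**
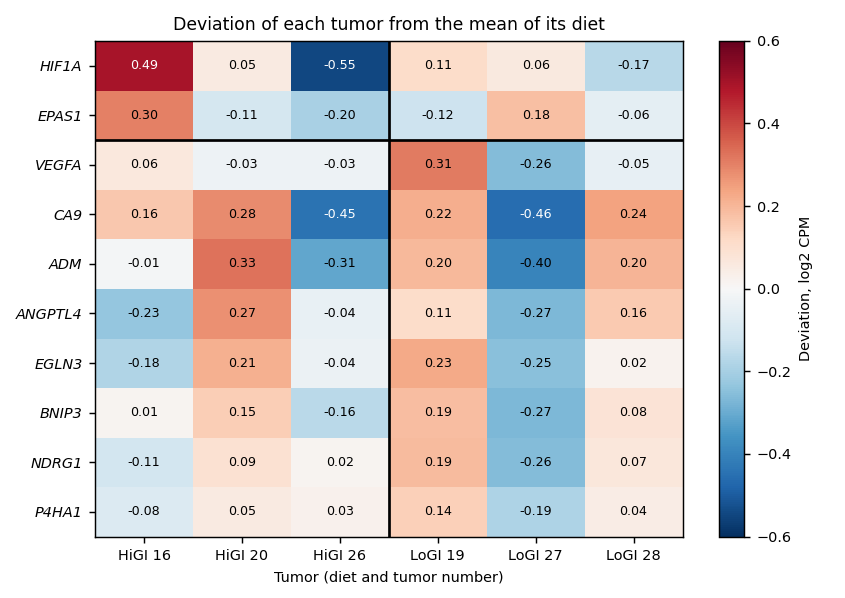
Deviation of each tumor (columns) from the mean of its own diet for each hypoxia gene (rows), in log2 CPM, with red above and blue below the mean. The horizontal line parts the factors from the targets and the vertical line parts the diets. All 8 targets are below the mean in LoGI tumor 27 and above it in LoGI tumor 19, whereas HIF1A is most extreme in HiGI tumors 16 (0.49) and 26 (-0.55).

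The likeness of the profiles was measured as the root mean square difference of mean-centred log2 CPM over the 6 tumors, where 0 is an identical profile. Diet, library and tumor are shared by all genes in it, and genes that vary little lie close to each other for that reason alone. Among the 28 pairs of targets it ran from 0.098 to 0.35 with a median of 0.19. Between a factor and a target, 16 pairs, it ran from 0.27 to 0.44 with a median of 0.35. As background, the median difference from all 13054 other genes with a mean of at least 50 reads was 0.34 for HIF1A and 0.26 for EPAS1. For single targets that background ran from 0.21 (NDRG1) to 0.38 (CA9). Against the targets alone the median was 0.36 for HIF1A and 0.33 for EPAS1. The values for HIF1A therefore do not show it to be unlike the targets in particular. For EPAS1 the median against the targets was above its background. With 6 tumors and targets that deviated together, whether EPAS1 is unlike the targets was not tested. VEGFA, EGLN3, BNIP3, NDRG1 and P4HA1, a group picked from these same values, were at 0.098 to 0.184 over their 10 pairs. BNIP3 and NDRG1 were the closest pair. The group has no clear edge, since ADM (0.132) and CA9 (0.183) were nearer to BNIP3 than VEGFA was to EGLN3 (0.184). Its genes also varied least of the 10 by edgeR dispersion (percentiles 13.1 to 31.2 of all tested genes, against 34.5 to 49.6 for the rest). The part of low variation in their likeness was not tested. CA9 was closest to ADM (0.15) among the 10 genes, and ADM was 14th among the 13054 genes with a mean of at least 50 reads ranked by likeness to CA9. EGLN3 and P4HA1 were at 0.10, and P4HA1 was 13th in the ranking for EGLN3. In the ranking for P4HA1 the closest of the 10 genes was NDRG1, at 187th, and EGLN3 came after it. NDRG1 was 63rd for BNIP3, and BNIP3 was 113th for NDRG1. The closest of the 10 genes was 93rd for VEGFA (NDRG1) and 18th for ADM (BNIP3). HIF1A and EPAS1 were closest to each other among the 10 genes, at 0.25. However, EPAS1 was 1027th in the ranking for HIF1A, and HIF1A was 5539th in the ranking for EPAS1. That difference of 0.25 is close to the median of 0.26 between EPAS1 and all of these genes. ANGPTL4 stood farthest from the other targets, since its closest, NDRG1, was at 0.19 and ranked 1259th. Each rank given here is that of the closest among the other hypoxia genes, a choice that by itself brings ranks forward. The rank that genes picked at random would reach was not worked out, so the ranks do not show which genes are unusually near or far. Among these 13054 genes the one most like NDRG1 was ENSG00000154265.16, at 0.023, and the one most like EPAS1 was ENSG00000135272.12, at 0.030, and neither is paired with a symbol in the table.

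**Figure D4:**
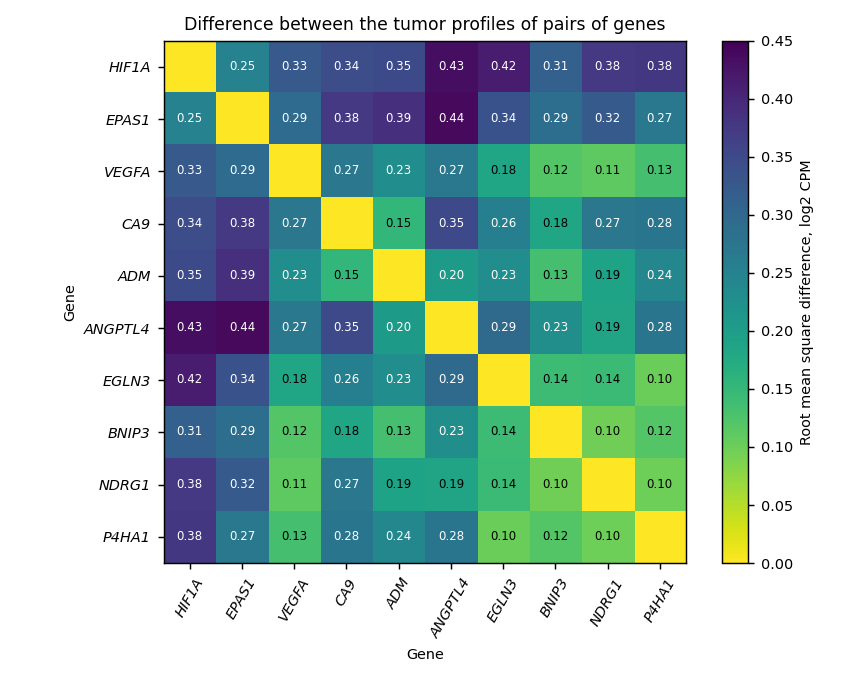
Root mean square difference between the mean-centred profiles of each pair of hypoxia genes over the 6 tumors, in log2 CPM (rows and columns are genes, yellow is alike, dark is unlike). The rows of HIF1A and EPAS1 are dark against all 8 targets (0.27 to 0.44), and the block of EGLN3, BNIP3, NDRG1 and P4HA1 is light. Some pairs of targets are as dark, such as CA9 and ANGPTL4 (0.35). The median difference of HIF1A from all other genes with a mean of at least 50 reads is 0.34.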

How the data were processed

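Tumor RNA (poly-A selected, stranded, single-end reads of 75 bp) was sequenced by the authors. Reads placed by BBMap on the mouse genome alone were discarded, and the remainder was aligned to human GRCh38.p13 with STAR and quantified with RSEM. The authors deposited whole-number counts per gene, not normalized. How RSEM estimates became whole, and the strand setting, are not given in the sources used here. Reads that match both species were kept.

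Columns were matched to tumors by title, with 0 columns unmatched, and diets were taken from the sample records. Genes whose 6 tumors together held 10 reads or more were tested with edgeR 4.0.16 in R 4.3.3 (TMM, quasi-likelihood F-test, Benjamini-Hochberg adjustment), at the study's threshold. Standard errors and intervals came from DESeq2 1.42.0. Scripts were tested on simulated data. Genes were named by rule: all 10 hypoxia genes, and the genes most like each in profile, of which 2 are printed. Symbols of the 10 genes came with the list that defined them. They and the lists were chosen with earlier results of these data known.

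Lists of further hypoxia, angiogenesis, glycolysis and marker genes were not looked up, since identifiers are not paired with symbols and the reference at hand is mouse. Gene lengths and sequences were therefore not used here. Alternatives were DESeq2 size factors, library totals, DESeq2's Wald test, edgeR's exact test, filters of 1 read and filterByExpr, no minimum fold change, a prior count of 2, and leaving out each tumor.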

Additional observations from a re-analysis of the deposited data

How the results depend on the processing

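Of the 120 fits of single hypoxia genes that repeated the test (10 genes under 12 alternatives), 110 kept both the direction and the side of an adjusted p of 0.05. No minimum fold change and a prior count of 2 leave the test of a gene as it was and are not in this count. The direction turned in 6, all with one tumor left out, where the log2 fold change went from -0.24 to 0.26 for HIF1A, from -0.089 to 0.23 for ADM and from -0.012 to 0.29 for VEGFA. The adjusted p went under 0.05 in the other 4, for EGLN3 with the filter lowered to 1 read and without LoGI tumor 27, for P4HA1 without LoGI tumor 27 and for EPAS1 without HiGI tumor 16. The number of hypoxia genes with an adjusted p under 0.05 at any fold change, a count added after seeing the data, was therefore 0 as reported, 1 with the filter of 1 read and from 0 to 2 with one tumor left out. The number that also met the minimum fold change was 0 under every alternative. Among all genes, the number higher on LoGI (18) was 32 in the exact test of edgeR, 39 with the filter of 1 read, 90 without a minimum fold change and from 4 (without LoGI tumor 19) to 26 with one tumor left out, and the number lower (829) stayed within 1.5 times. The cause of these differences was not tested, apart from no minimum fold change, which only widens the rule. Alternatives for the further gene lists were not run, because identifiers are not paired with symbols. No paired analysis was possible because the tumor numbers of the diets differ and pair no tumors.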
